A study of Homo sapiens with 12 samples.

Results

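Cells detect foreign or misplaced nucleic acid through a small group of receptor proteins, and 10 human genes for such receptors and their adaptors are described here in 2 prostate cancer cell lines. The genes were taken by symbol from the deposited count tables: DDX58 (RIG-I), IFIH1 (MDA5), DHX58 (LGP2), TLR3, EIF2AK2 (PKR), ZBP1, MB21D1 (cGAS), MAVS, TICAM1 (TRIF) and TMEM173 (STING). All 10 were found, each as 1 row, among the 60106 genes of the tables. PC3 is a line from a bone metastasis, and VCaP is a line from a vertebral metastasis that carries a TMPRSS2-ERG fusion. Each line received either a non-targeting siRNA (NSI) or siRNA against FOXA1 (siFOXA1), a forkhead transcription factor of the prostate lineage, with a lipid reagent, and RNA was taken 72 hours later. PC3 was given 20 nM siRNA in RPMI medium and was sequenced from polyadenylated RNA with the TruSeq stranded mRNA kit. VCaP was given 40 nM siRNA in DMEM and was sequenced from total RNA with the TruSeq total RNA kit. Each of the 4 groups had 3 libraries. All 4 groups, the controls included, therefore carried transfected siRNA, which is itself a short double-stranded RNA, and untransfected cells were not analysed here. The labels do not say how many siRNA sequences were used against FOXA1, and they do not say whether replicates were separate cultures, so the p-values measure the spread between these libraries, which may be technical.

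RIG-I, MDA5 and LGP2 are related helicases of the cytosol. RIG-I binds RNA ends that carry a triphosphate, MDA5 binds long double-stranded RNA, and LGP2, which lacks the signalling domains of the other two, tunes their activity. RIG-I and MDA5 signal through MAVS on mitochondria, TLR3 binds double-stranded RNA in endosomes and signals through TRIF, and cGAS binds cytosolic DNA and makes cGAMP, the ligand of STING. The routes meet at the kinase TBK1 and the factor IRF3, which switch on interferon genes, and several of the receptor genes are themselves interferon-stimulated, so that a response raises the level of its own sensors. PKR, a kinase activated by double-stranded RNA, halts translation by phosphorylating eIF2alpha, and ZBP1 binds Z-form RNA or DNA and can start cell death.

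Promoter sequence is shown for the 4 genes that hold the core letters of an interferon-stimulated response element, the element that STAT and IRF factors bind in interferon-stimulated genes. RefSeq promoters, which run from 250 bases before the start of a gene to 50 bases after it in a table built on GRCh38.p14, were matched for 6 of the 10 genes: DDX58 under its current symbol RIGI, IFIH1, TLR3, EIF2AK2, MAVS and TICAM1. The letters searched on both strands were 2 copies of GAAA in the same direction with 1 or 2 bases between them, and they were chosen after these sequences had been seen. They occurred in 4 of the 6 promoters and in 6.396% of all 35116 promoters of the same length in the table. MAVS and TICAM1 had no match. Each stretch below is written 5′ to 3′ on the strand of the gene, with the GAAA pair, or its reverse complement, in capitals. It was located in GRCh37, the build of the count tables, where it matched 1 place on its chromosome.
DDX58 at chr9:32526363-32526423, minus strand: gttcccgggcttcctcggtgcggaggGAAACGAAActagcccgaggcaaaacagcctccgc
IFIH1 at chr2:163175312-163175379, minus strand: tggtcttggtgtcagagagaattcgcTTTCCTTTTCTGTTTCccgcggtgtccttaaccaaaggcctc
IFIH1 at chr2:163175196-163175225, minus strand: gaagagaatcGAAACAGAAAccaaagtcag
TLR3 at chr4:186990296-186990325, plus strand: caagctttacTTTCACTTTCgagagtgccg
EIF2AK2 at chr2:37384110-37384139, minus strand: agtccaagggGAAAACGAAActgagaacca

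The DDX58 stretch lies wholly before the gene of the count tables, from 229 to 169 bases before the RefSeq start, as does the first IFIH1 stretch, from 185 to 118 bases before its start, whose capitals hold a pair of overlapping matches. The second IFIH1 stretch and the TLR3 stretch cross the start of the gene, and the EIF2AK2 stretch lies inside the EIF2AK2 gene of the count tables, which begins farther upstream. Other letters were searched in the same way. The STAT element TTCNNNGAA was found in the TLR3 promoter and in 7.657% of all promoters, and the NF-kappaB letters GGACTTTCC were found in the TICAM1 promoter, 119 to 111 bases before the start, and in 0.37% of all. Of the forkhead letters, TGTTTAC was in none of the 6 promoters and in 3.423% of all, and TGTTTGC was in none of the 6 and in 3.89% of all. A match or its absence describes these letters in this window only.

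The 6 PC3 libraries held between 123140099 and 188226483 counts, and the 6 VCaP libraries between 48187047 and 59839211. FOXA1, the siRNA target, ranged from 242.1 to 301.0 CPM (counts scaled to a common library size) in PC3 NSI and from 166.8 to 182.7 CPM in PC3 siFOXA1, and from 447.7 to 539.2 CPM in VCaP NSI and from 73.7 to 85.9 CPM in VCaP siFOXA1. The groups stood apart in both lines, with siFOXA1 at 64.2% of the NSI mean in PC3 and 16.8% in VCaP. Replicate 2 stood apart in both PC3 groups. Per degree of freedom, the chi-square of its counts against the other replicates was 159 and 111 in NSI and 66.8 and 92.6 in siFOXA1, compared with 46.6 and 22.4 for replicates 1 and 3, and 11.1 to 40.8 in VCaP. This measure grows with the number of counts, so the values of the deeper PC3 libraries and of VCaP do not share a scale. ERG, which the fusion places under the TMPRSS2 promoter in VCaP, averaged 234.0 CPM in VCaP NSI and 0.0294 CPM in PC3 NSI. PTPRC, a gene of all leukocytes, averaged 0.0239 CPM in PC3 NSI, 0.110 CPM in PC3 siFOXA1, 0.111 CPM in VCaP NSI and 0.0197 CPM in VCaP siFOXA1, and CD3E had at most 2 counts in any library.

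In PC3, transcripts of 6 of the 10 genes rose with siFOXA1: DDX58, IFIH1, TLR3, EIF2AK2, ZBP1 and TMEM173. ZBP1 passed the filter on low counts only through siFOXA1, where it is high, so its direction was set by the filter, and 5 of the 8 genes that passed in both groups were higher. None fell, MB21D1, MAVS and TICAM1 did not pass the test, and DHX58 was below the filter. The threshold here and below is an adjusted p under 0.05 in edgeR's quasi-likelihood test over all genes tested. Of the 26435 genes tested in PC3, 15% were called higher and 12.1% lower, 27% in all. The 3 siFOXA1 libraries lay above the 3 NSI libraries for 7 of the 9 sensor genes tested and below them for 1, beside 24.4% and 20.2% of all genes. ZBP1, whose direction was set by the filter, is among those 7. In VCaP, TLR3 and TMEM173 rose, EIF2AK2 and TICAM1 fell, and DDX58, IFIH1, DHX58 and MAVS did not pass, while ZBP1 and MB21D1 were below the filter. Of the 22925 genes tested in VCaP, 22.5% were called higher and 23.3% lower, 45.8% in all, so 2 of 8 in each direction is close to the share among all genes. The VCaP groups stood apart upward for 2 and downward for 2 of the 8, beside 30.3% and 25.8% of all genes. The median log2 fold change of the tested sensor genes was 1.62 in PC3 over the 8 that passed in both groups, beside 0.02 over all genes, and −0.10 in VCaP, beside 0.02 over all genes. A fit blocked on the replicate number called 11297 genes in PC3 in place of 7149, and the sensor genes called stayed at 6. Expression was measured in bulk, so fewer cells with a transcript and less transcript per cell cannot be told apart.

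**Figure D1:**
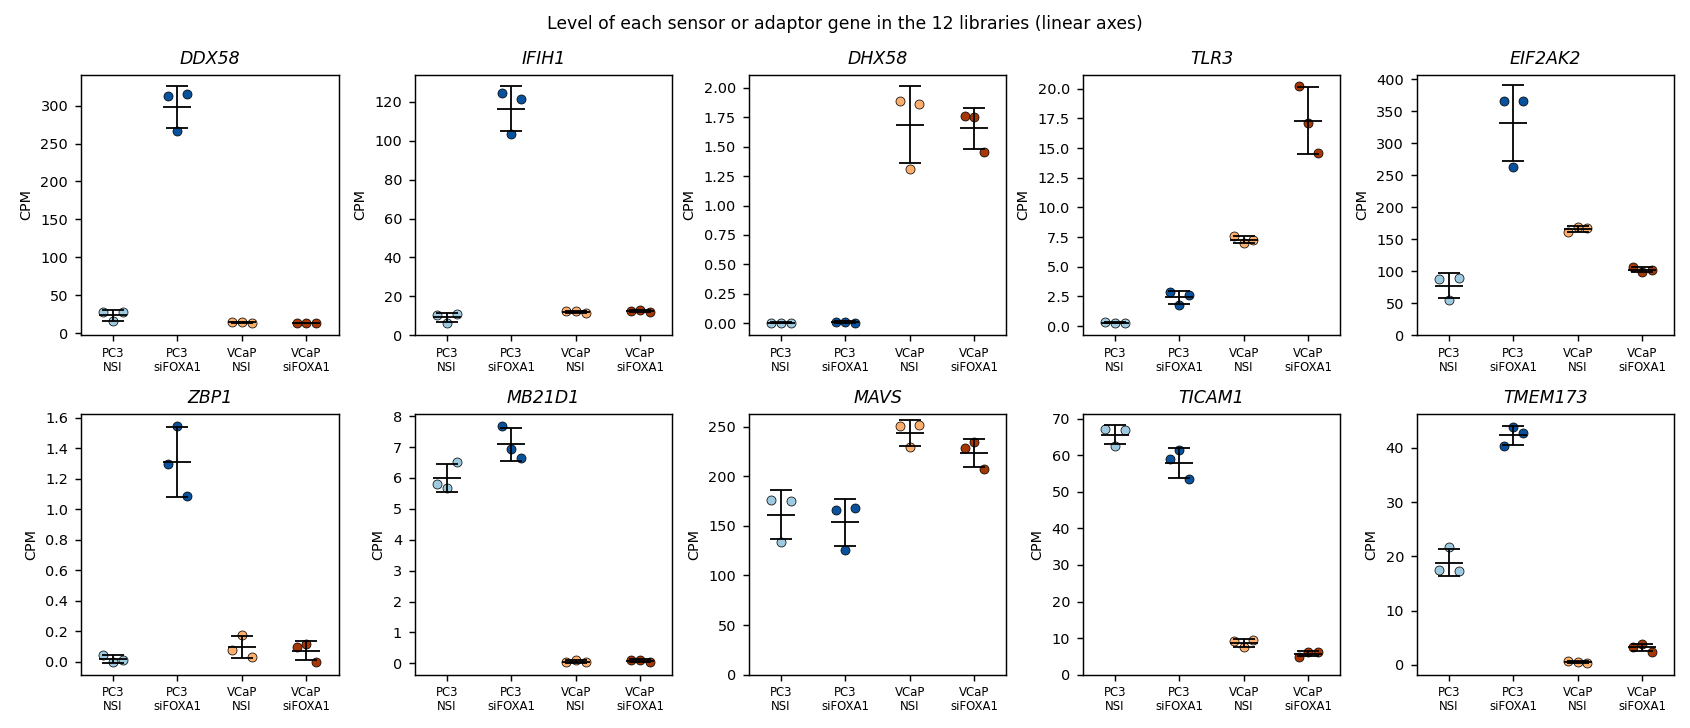
Level of each of the 10 genes in the 12 libraries, in CPM on linear axes that differ between panels, with 1 point per library and bars for the mean ± SD of 3 libraries. In PC3 siFOXA1, DDX58 reached 266.1 to 315.1 CPM and stood far above the other 3 groups, whereas in VCaP its points overlapped between NSI and siFOXA1.

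Of the cytosolic RNA helicases, DDX58 and IFIH1 rose in PC3 and were not called in VCaP. DDX58 (ENSG00000107201.9_2, chr9:32455703-32526322, minus strand) measured 28.1, 15.6 and 28.2 CPM in PC3 NSI replicates 1 to 3, against 312.3, 266.1 and 315.1 CPM in siFOXA1. Every siFOXA1 library was above every NSI library, and replicate 2 was the lowest of its group in both. The means differed 12.4-fold, and the fitted log2 fold change was 3.63 (SE 0.22, adjusted p = 1.46e-05). Taken within replicate numbers, the ratios were 11.1, 17.0 and 11.2, and without replicate 2 in either group, an alternative chosen after seeing the data, the log2 fold change was 3.47. In VCaP, DDX58 measured 15.4, 14.2 and 13.1 CPM with NSI against 13.3, 12.9 and 13.2 CPM with siFOXA1. The groups overlapped, and the fitted change of −0.15 (95% interval −0.33 to 0.04, adjusted p = 0.168) has an upper bound far below the PC3 value.

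IFIH1 (ENSG00000115267.5_2, chr2:163123589-163175213, minus strand), the long double-stranded RNA receptor, followed DDX58 closely in PC3. It measured 10.3, 6.46 and 10.8 CPM with NSI against 124.5, 103.5 and 121.7 CPM with siFOXA1. The groups were far apart, again with replicate 2 lowest in each, and the log2 fold change was 3.66 (SE 0.19, adjusted p = 6.98e-06), a 12.7-fold difference of means. In VCaP the values were 12.4, 12.3 and 11.2 CPM with NSI against 12.5, 12.9 and 12.0 CPM with siFOXA1. These ranges overlapped, with a log2 change of 0.03 (95% interval −0.15 to 0.20, adjusted p = 0.815). Per kilobase of exon, DDX58 was 2.34 to 2.65 times IFIH1 in the 6 PC3 libraries, across both siRNAs, and 0.97 to 1.2 times IFIH1 in the 6 VCaP libraries. The ratio thus moved little in PC3 while both levels rose more than 10-fold.

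DHX58 (ENSG00000108771.12_3, chr17:40253422-40264751, minus strand), the helicase without signalling domains, was the member of the family that PC3 barely transcribed. It had 1, 0 and 1 counts in the PC3 NSI libraries and 2, 2 and 1 in siFOXA1, a ratio of 2.68 per total count with a 95% interval from 0.438 to 28.1 that covers counting error only. No change was detectable at these counts, and the gene was not tested in PC3. VCaP held 100, 67 and 108 counts in NSI, or 1.88, 1.31 and 1.86 CPM, and 88, 88 and 76 counts in siFOXA1, or 1.76, 1.75 and 1.46 CPM. The VCaP groups overlapped and the log2 fold change was −0.06 (95% interval −0.45 to 0.34, adjusted p = 0.808). DHX58 is commonly counted among interferon-stimulated genes, and here it stayed at a handful of counts in the same PC3 libraries in which DDX58 and IFIH1 stood above 100 CPM. Whether PC3 can transcribe DHX58 at all was not tested, so these counts do not describe how the gene responds.

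TLR3 (ENSG00000164342.12_2, chr4:186990306-187009223, plus strand), the endosomal receptor, was the only one of the RNA receptors called higher in both lines. In PC3 it measured 0.343, 0.257 and 0.249 CPM with NSI against 2.84, 1.82 and 2.61 CPM with siFOXA1. The groups did not overlap, and the log2 fold change was 3.09 (SE 0.23, adjusted p = 4.15e-05). In VCaP it measured 7.57, 6.97 and 7.27 CPM with NSI against 20.2, 17.1 and 14.6 CPM with siFOXA1. These groups also stood apart, with a log2 change of 1.22 (SE 0.12, adjusted p = 3.45e-05). The highest PC3 siFOXA1 library still lay below the lowest VCaP NSI library.

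EIF2AK2 (ENSG00000055332.16_3, chr2:37326353-37384190, minus strand), which encodes the kinase PKR, was called in opposite directions. PC3 held 88.0, 54.5 and 89.3 CPM with NSI against 365.6, 263.6 and 366.1 CPM with siFOXA1, a 4.29-fold difference of means and a log2 change of 2.09 (SE 0.20, adjusted p = 0.000176). VCaP held 161.1, 169.1 and 167.8 CPM with NSI against 106.4, 98.2 and 102.4 CPM with siFOXA1, with a log2 change of −0.73 (SE 0.06, adjusted p = 1.26e-05). In both lines the groups stood apart, upward in PC3 and downward in VCaP, to 61.6% of the NSI mean. Exons of genes on the other strand cover 4.24% of EIF2AK2 exon sequence, which matters for PC3, where strand was ignored in counting.

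ZBP1 (ENSG00000124256.14_2, chr20:56178902-56195632, minus strand), the Z-form nucleic acid receptor, had 7, 0 and 2 counts in the PC3 NSI libraries, against 211, 194 and 183 with siFOXA1. The gene was thus close to undetected in PC3 NSI and at 183 counts or more with siFOXA1. The ratio per total count was 70.0, with a 95% interval from 36.6 to 153.8 that covers counting error only, and the log2 fold change was 6.03 (SE 0.52, adjusted p = 0.000104), in a test that the gene entered only through siFOXA1. Replicate 1 held most of the NSI counts, and without it the log2 fold change was 7.54. Without replicate 2 in both groups it was 5.40. In CPM the siFOXA1 level remained low, at 1.29, 1.55 and 1.09. VCaP had 4, 9 and 2 counts with NSI against 5, 6 and 0 with siFOXA1, a ratio of 0.758 (95% counting interval 0.315 to 1.77), and was not tested.

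The DNA receptor cGAS, encoded by MB21D1 (ENSG00000164430.15_3, chr6:74123238-74161999, minus strand), was present in PC3 and nearly undetected in VCaP. PC3 measured 5.80, 5.67 and 6.51 CPM with NSI against 7.69, 6.93 and 6.65 CPM with siFOXA1. The 2 groups did not overlap, as for 24.4% of all genes in that direction, but the log2 fold change of 0.23 did not pass the test (95% interval −0.02 to 0.48, adjusted p = 0.15). VCaP had 2, 5 and 2 counts with NSI against 5, 6 and 2 with siFOXA1, a ratio of 1.49 (95% counting interval 0.590 to 3.96). Exons of DDX43 on the other strand cover 4.88% of MB21D1 exon sequence.

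Of the adaptors, MAVS (ENSG00000088888.17_2, chr20:3827446-3856770, plus strand), through which RIG-I and MDA5 signal, was not called in either line. PC3 held 176.1, 133.3 and 175.1 CPM with NSI against 166.6, 126.2 and 168.2 CPM with siFOXA1, with a log2 change of −0.08 (95% interval −0.39 to 0.23, adjusted p = 0.689). The ranges overlapped, and the within-replicate ratios were 0.946, 0.947 and 0.961. VCaP held 250.5, 229.2 and 252.0 CPM with NSI against 228.2, 235.2 and 207.6 CPM with siFOXA1, with a log2 change of −0.16 (95% interval −0.32 to 0.01, adjusted p = 0.112). A transcript for this adaptor was thus abundant in every library of both lines.

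TICAM1 (ENSG00000127666.9_2, chr19:4815944-4831716, minus strand), the TLR3 adaptor, measured 67.3, 62.6 and 67.0 CPM in PC3 NSI and 59.0, 61.5 and 53.4 CPM in PC3 siFOXA1. The siFOXA1 libraries were all below the NSI libraries, as for 20.2% of all genes, but the log2 change of −0.19 (SE 0.09, adjusted p = 0.15) did not pass the test. Without replicate 2 in both groups it did, at −0.27 (adjusted p = 0.0135). In VCaP it measured 9.25, 7.48 and 9.43 CPM with NSI against 4.92, 6.07 and 6.09 CPM with siFOXA1, groups that stood apart. It fell by 0.65 on the log2 scale (SE 0.13, adjusted p = 0.00238), to 65.3% of the NSI mean, in the same libraries in which its receptor TLR3 rose.

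TMEM173 (ENSG00000184584.12_3, chr5:138855549-138862375, minus strand), which encodes the cGAMP receptor STING, rose in both lines. PC3 held 17.6, 21.8 and 17.2 CPM with NSI against 40.3, 43.8 and 42.7 CPM with siFOXA1, and the log2 fold change was 1.15 (SE 0.12, adjusted p = 0.000285). VCaP began low, at 38, 30 and 24 counts in NSI or 0.716, 0.586 and 0.414 CPM, and held 167, 194 and 127 counts in siFOXA1 or 3.34, 3.86 and 2.43 CPM. Its groups stood apart, the fitted log2 change was 2.46 (SE 0.24, adjusted p = 3.72e-05), and the mean CPM differed 5.62-fold. Even so, the highest VCaP siFOXA1 library was below the lowest PC3 NSI library.

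**Figure D2:**
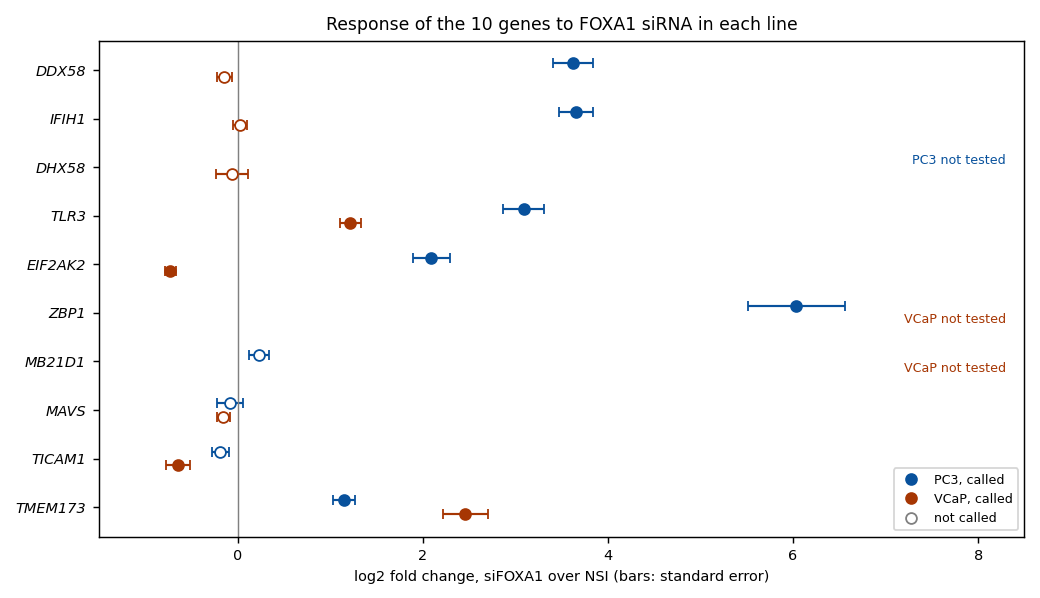
Fitted log2 fold change of siFOXA1 over NSI for each gene in PC3 (blue) and VCaP (brown), with bars for the standard error and filled points for an adjusted p under 0.05. DDX58 and IFIH1 lie at 3.63 and 3.66 in PC3 and near 0 in VCaP, and EIF2AK2 lies on opposite sides of 0.

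The responses of the lines were set against each other by the interaction in 1 model of the 12 libraries, in which a negative value means a lower effect in VCaP than in PC3. Of the 10 genes, 6 had a lower effect in VCaP, among them ZBP1, which passed the filter only through PC3 siFOXA1, and 1, TMEM173, had a higher effect, beside 11% lower, 11.3% higher and 22.2% in all among the 30425 genes tested. The difference was −3.75 for DDX58 (SE 0.25, adjusted p = 6.57e-08) and −3.61 for IFIH1 (SE 0.21, adjusted p = 2.44e-08). For EIF2AK2 it was −2.80 (SE 0.23, adjusted p = 5.74e-07). In VCaP the effect on DDX58 and IFIH1 was near 0, and that on EIF2AK2 was opposite.

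TLR3 rose in both lines, and its effect was lower in VCaP by 1.85 on the log2 scale (interaction −1.85, SE 0.26, adjusted p = 8.16e-05). The ZBP1 interaction of −6.37 (SE 1.14, adjusted p = 0.000781) rests on few counts in 3 of the 4 groups, and it was −7.87 without PC3 NSI replicate 1, −5.61 without VCaP NSI replicate 2 and −5.78 without VCaP siFOXA1 replicate 3. TMEM173 went the other way, with an effect larger in VCaP by 1.33 (SE 0.26, adjusted p = 0.00142). The TICAM1 interaction of −0.44 (adjusted p = 0.0498) sat at the threshold and was lost under 7 of 19 alternatives, with adjusted p from 0.0131 to 0.154. DHX58 (−1.19, 95% interval −2.99 to 0.60), MB21D1 (0.37, −0.78 to 1.52) and MAVS (−0.05, −0.43 to 0.32) were not called. The siRNA dose, the medium, the library kit and the depth of the FOXA1 knockdown all differed between the lines, so their part in these differences cannot be told apart from that of the line.

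Without FOXA1 siRNA, the lines already held different sets of sensor transcripts. In VCaP NSI against PC3 NSI, 4 of the 9 genes tested were higher (DHX58, TLR3, EIF2AK2 and MAVS) and 4 were lower (DDX58, MB21D1, TICAM1 and TMEM173). DHX58 and MB21D1 passed the filter through 1 line alone, so their directions were set by it, and the 7 genes that passed in both lines had 3 higher and 3 lower. Among the 28132 genes tested, 42.4% were higher and 44.6% lower, 87% in all, so that being called is common here and the sizes carry the comparison. The line is confounded with kit, dose, medium and strand setting, as above, and whether those settings contribute was not tested.

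VCaP NSI libraries held more of the endosomal receptor and of LGP2. The TLR3 mean was 25.7 times that of PC3, at 7.27 ± 0.302 CPM against 0.283 ± 0.0521 CPM (SD, n = 3 each), with a log2 difference of 4.69 (adjusted p = 4.15e-10). DHX58 had 275 counts summed over VCaP NSI and 2 over PC3 NSI, a ratio of 417.7 per total count with a 95% counting interval from 114.5 to 3466. EIF2AK2 was 2.15 times as high in VCaP (log2 difference 1.11, SE 0.17, adjusted p = 7.34e-05) and MAVS 1.51 times (0.60, SE 0.13, adjusted p = 0.000821), both with groups that did not overlap.

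PC3 NSI libraries held more of the DNA route. MB21D1 had 2859 counts summed over PC3 NSI and 9 over VCaP NSI, a PC3 to VCaP ratio of 104.6 with a 95% counting interval from 55.0 to 228.9. The log2 difference was −6.71 and became −7.33 without VCaP NSI replicate 2, which held 5 of the 9 counts. TMEM173 was 33.0 times as high in PC3, at 18.9 ± 2.52 CPM against 0.572 ± 0.152 CPM (log2 difference −5.04, SE 0.19, adjusted p = 3.57e-10). TICAM1 was 7.53 times as high in PC3 (log2 difference −2.90, SE 0.11, adjusted p = 5.31e-10). The TLR3 receptor and its adaptor were thus ordered oppositely in the lines, with more receptor transcript in VCaP and more adaptor transcript in PC3.

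DDX58 and IFIH1, the main cytosolic RNA receptors, each differed by less than 2-fold between the lines. DDX58 was 1.69 times as high in PC3 NSI (log2 difference −0.75, SE 0.20, adjusted p = 0.0043), and the nearest libraries were 15.6 CPM in PC3 and 15.4 CPM in VCaP. IFIH1 was 1.31 times as high in VCaP, with groups that did not overlap, as for 43.1% of all genes in that direction, but the log2 difference of 0.39 (95% interval −0.01 to 0.79, adjusted p = 0.0601) missed the threshold. It passed under 6 of 12 alternatives, with adjusted p from 0.0181 to 0.179. ZBP1 had 9 counts in PC3 NSI and 15 in VCaP NSI and was not tested. Transcripts of DDX58, IFIH1 and MAVS were therefore measured in every NSI library of both lines, and those of MB21D1 and TMEM173 together at more than 5 CPM only in PC3.

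Levels of different genes were compared per kilobase of exon, since a longer transcript yields more fragments. In PC3 NSI, TICAM1 led with 24.5 CPM per kilobase, followed by MAVS (13.7) and TMEM173 (10.7), whose library ranges overlapped. EIF2AK2 (7.52) and DDX58 (5.51) overlapped next, then IFIH1 (2.18) and MB21D1 (1.62), with TLR3 (0.0454), ZBP1 (0.00751) and DHX58 (0.00155) far below. In PC3 siFOXA1, DDX58 came first at 68.4 CPM per kilobase, above the ranges of all others. EIF2AK2 (32.3), IFIH1 (27.7), TMEM173 (23.9) and TICAM1 (21.7) followed with ranges that overlapped from each to the next. MAVS (13.1), MB21D1 (1.92), ZBP1 (0.510) and TLR3 (0.389) came after them, ZBP1 and TLR3 with overlapping ranges, and DHX58 (0.00435) was last.

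VCaP kept a different order, led by the adaptor MAVS at 20.7 CPM per kilobase in NSI and 19.0 in siFOXA1, with EIF2AK2 second at 16.2 and 9.96. DDX58 (3.27), TICAM1 (3.26) and IFIH1 (2.85) overlapped in NSI, and DDX58 (3.02), IFIH1 (2.96) and TLR3 (2.78) overlapped in siFOXA1. TLR3 stood below those 3 genes in NSI, at 1.17. In siFOXA1, TICAM1 (2.13) and TMEM173 (1.81) came next, with overlapping ranges. DHX58 was at 0.644 and 0.633, TMEM173 at 0.323 in NSI, and ZBP1 and MB21D1 averaged below 0.05 in both groups.

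**Figure D3:**
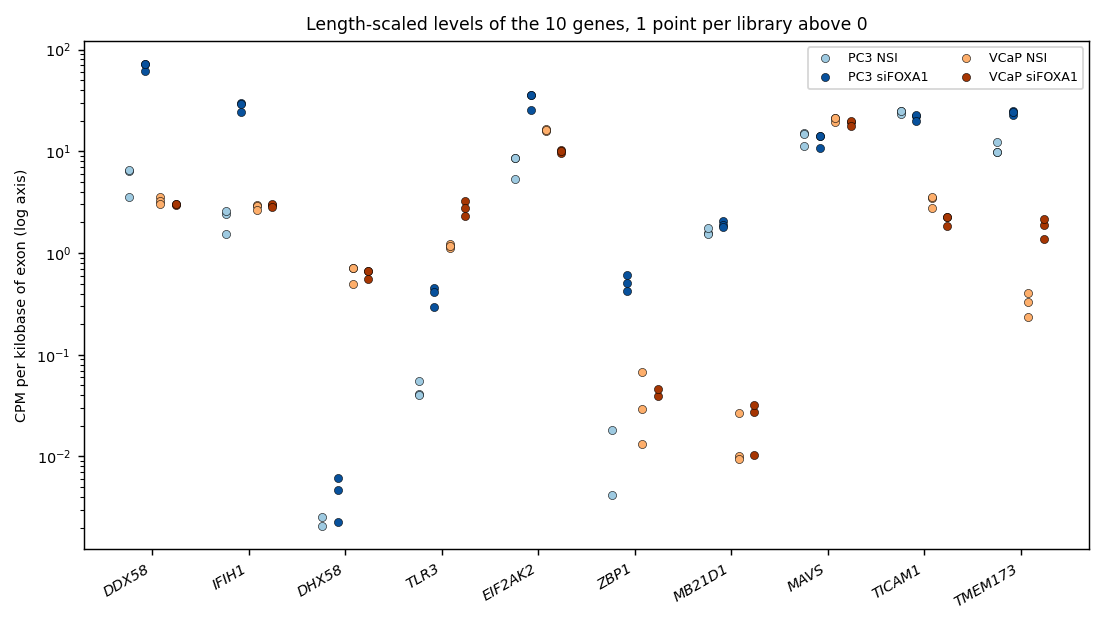
CPM per kilobase of exon for the 10 genes on a log axis, with 1 point per library and 1 colour per group. Libraries at 0 (DHX58 and ZBP1 in PC3 NSI replicate 2, ZBP1 in VCaP siFOXA1 replicate 3) cannot be drawn. DDX58 in PC3 siFOXA1 lies highest, at 61.1 to 72.4, and DHX58 in PC3 and MB21D1 in VCaP lie near the bottom.

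Genes around the sensors were grouped in lists by role. Their counts of called genes stand beside 15% higher and 12.1% lower among all genes in PC3 and 22.5% higher and 23.3% lower in VCaP, and no test of a list was run. Among 17 cofactors and regulators of the RIG-I-like receptors, 5 rose, 4 fell and 8 were not called in PC3, and 6 rose, 6 fell and 5 were not called in VCaP. DDX60L (log2 fold change 2.68) and DDX60 (2.63), helicase genes, rose in PC3, where TRIM65 (−0.75), a ubiquitin ligase for MDA5, and TOMM70 (−0.52), a mitochondrial import receptor that binds MAVS, fell. In VCaP, RNF125 (1.33), a ubiquitin ligase that marks RIG-I for degradation, and CYLD (0.43), a deubiquitinase, rose, and TOMM70 (−0.43) and TRIM25 (−0.36), a ligase that activates RIG-I, fell. The list medians were 0.02 in PC3 and 0.10 in VCaP, beside 0.02 over all genes in each line.

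Of 16 kinases and factors downstream of the adaptors, 5 rose and 2 fell in PC3, and 5 rose and none fell in VCaP. In PC3, 2 of 16 lower is near the 12.1% of all genes. IRF7 (1.76), an interferon-stimulated factor that amplifies interferon transcription, and RIPK1 (0.48) rose in PC3, and NFKB1 (−0.52) and TRAF3 (−0.46) fell there. In VCaP, NFKB1 (0.49) and IKBKE (0.91), a kinase related to TBK1, rose. Among the endosomal receptors and their handling genes, 10 of 12 were tested in each line. In PC3, 4 rose, among them MYD88 (1.01), the adaptor of the other endosomal receptors, and SIDT2 (0.71), and IRAK1 (−0.35) fell. In VCaP, 4 rose, among them SIDT2 (1.08) and TLR9 (2.04, from 0.142 to 0.606 CPM, tested only through siFOXA1), and 3 fell, among them SIDT1 (−1.40) and MYD88 (−0.27). TLR7 and TLR8 were below the filter in both lines.

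The list of other DNA sensing and DNA or cGAMP turnover genes had 4 higher and 5 lower of 16 tested in PC3 and 3 higher and 8 lower of 13 tested in VCaP, where the higher share is close to the 22.5% of all genes. SAMHD1 (2.40), a nucleotide hydrolase, and AIM2 (5.20, from 0.0917 to 3.36 CPM), an inflammasome DNA receptor that was tested only through siFOXA1, rose in PC3. ENPP1, which degrades extracellular cGAMP, fell in both lines (−0.62 in PC3, −1.56 in VCaP). SLC19A1 (−0.71), a cGAMP importer, fell in PC3, and LRRC8A (−1.36), part of a channel that passes cGAMP, fell in VCaP, where RNASEH2B (0.49) and TREX1 (0.55), a DNA exonuclease, rose.

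Genes listed as RNA-binding effectors were called higher in PC3 for all 11 tested, beside 15% of all genes, with a median log2 fold change of 3.12 beside 0.02. OASL (2.54) and IFIT3 (3.53) had the smallest adjusted p. In VCaP, 9 of 10 tested were called higher, beside 22.5% of all genes, or 8 of 9 without OAS2, which was tested only through siFOXA1, and those 9 had a median of 0.88. OAS1 (1.55, from 3.87 to 11.6 CPM) and IFIT2 (1.32, from 2.34 to 5.98 CPM) had the smallest adjusted p among those that rose, and OAS3 (−0.51, from 78.8 to 56.4 CPM) fell. IFIT1 (from 0.714 to 1.34 CPM), ISG20 (from 0.761 to 1.14 CPM) and NLRP1 (from 0.350 to 0.845 CPM) rose at low levels. The effector genes called higher were so in the same VCaP libraries in which DDX58, IFIH1 and DHX58 were not called. Among 9 genes of double-stranded RNA editing and turnover, 3 rose and 2 fell in PC3 and none rose and 5 fell in VCaP. ADAR, which edits double-stranded RNA and so hides it from MDA5, rose in PC3 (1.04) and fell in VCaP (−0.56), and EIF2AK2 had the same pair of directions. ZNFX1 (1.58) also rose in PC3, STAU1 (−0.78) and SUPV3L1 (−0.49) fell there, and TARBP2 (−0.49), a PKR-binding protein, fell in VCaP.

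PKR has 3 sister kinases that phosphorylate the same factor, and these were listed with the stress genes behind them. In PC3, 1 of 12 rose (EIF2AK4, 0.29), 1 fell (CHAC1, −0.48) and 10 were not called. These counts stand beside 15% higher and 12.1% lower among all genes and set the list little apart from them. In VCaP, 5 rose and 3 fell, among them TRIB3 (0.56) and CHAC1 (1.06) upward and ATF4 (−0.36) and DNAJC3 (−0.46), an inhibitor of PKR, downward. There, 3 of 12 lower is close to the 23.3% of all genes. The death partners of ZBP1 had 3 higher of 4 tested in PC3, among them MLKL (0.79), which permeabilises the membrane in necroptosis, and CFLAR (0.79), an inhibitor of caspase-8. In VCaP, CFLAR (0.37) and CASP8 (0.35) rose and the other 2 tested were not called. RIPK3, the kinase that ZBP1 engages, was below the filter in both lines.

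**Figure D4:**
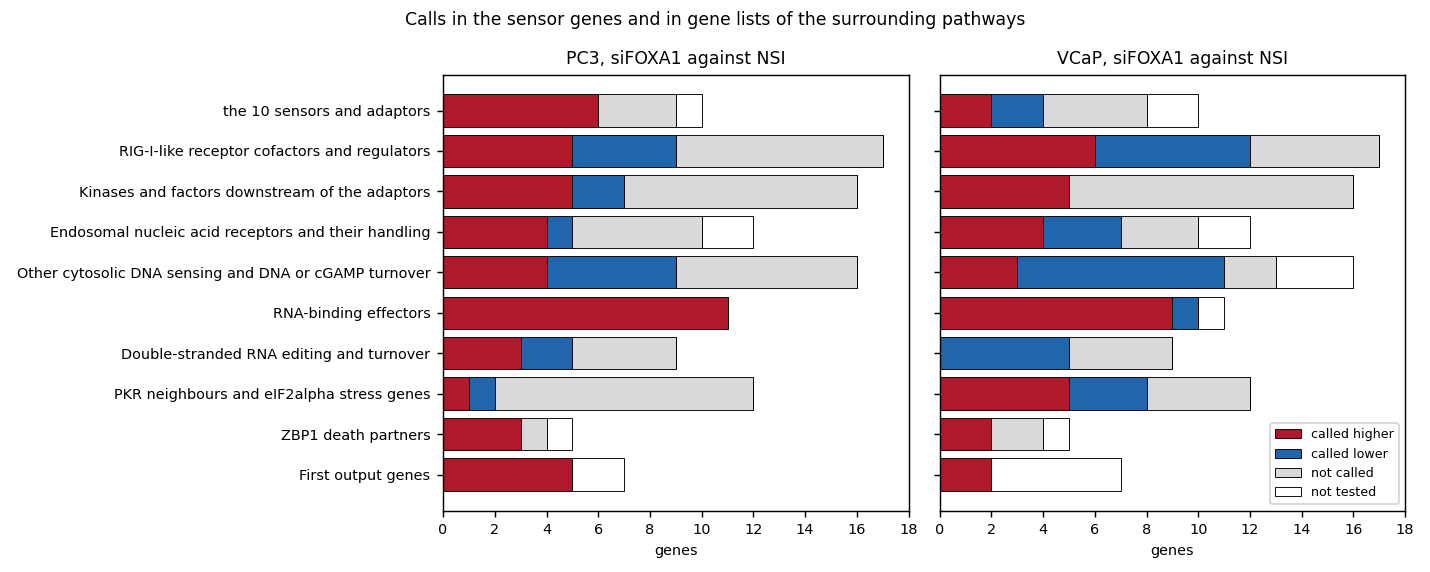
Number of genes called higher (red), called lower (blue), not called (grey) and not tested (white) in the sensor genes and in 9 lists of genes around them, for siFOXA1 against NSI in PC3 (left) and VCaP (right). RNA-binding effectors were all called higher in PC3 and 9 of 10 tested in VCaP, whereas the sensors themselves had 6 higher in PC3 and 2 higher with 2 lower in VCaP. Some genes called higher passed the filter only through siFOXA1: ZBP1, AIM2 and all 5 first output genes tested in PC3, and OAS2 and TLR9 in VCaP. Among all genes, 15% were called higher and 12.1% lower in PC3, and 22.5% and 23.3% in VCaP.

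The first genes that the sensors switch on were counted in both lines. In PC3, all 5 genes tested passed the filter only through siFOXA1, so that they were called higher was set by the filter, and their counts are given. IFNB1, the interferon beta gene, had 0, 2 and 0 counts with NSI against 15, 13 and 20 with siFOXA1, and IFNL1, an interferon lambda gene, had 4, 0 and 1 counts and then 53, 49 and 61. These are few fragments in libraries of at least 123140099 counts, and the ratios per total count were 25.7 (95% counting interval 6.74 to 218.3) and 34.9 (14.7 to 109.0). IFNL2 and IFNL3 had 0 counts in every PC3 NSI library, and with siFOXA1 IFNL2 had 15, 1 and 4 counts and IFNL3 had 13, 3 and 7. These near-identical genes share fragments, so their split is uncertain. Of the chemokine genes, CXCL10 had 2, 0 and 28 counts with NSI against 212, 148 and 197 with siFOXA1. CXCL10, CXCL11 and CCL5 had log2 fold changes of 4.30, 6.26 and 4.29 in PC3.

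In VCaP the interferon genes were at or near 0. IFNB1 summed to 0 counts in NSI and 1 in siFOXA1, IFNL1 to 1 and 1, and IFNL2 and IFNL3 to 0 in both. The chemokines nevertheless rose. CXCL10 had 135, 127 and 194 counts with NSI against 1471, 1695 and 1743 with siFOXA1 (log2 fold change 3.49, SE 0.12, adjusted p = 1.28e-07), and CXCL11 went from 413, 501 and 744 counts to 2454, 2803 and 3859 (2.52, SE 0.19, adjusted p = 7.52e-06). The groups stood apart for both genes, without a call for DDX58 or IFIH1 in those libraries. The PC3 and VCaP contrasts share no library.

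Genes whose level ran most like DDX58 were ranked by Pearson correlation of log2(CPM + 0.5) over the 12 libraries, and the 14226 genes ranked averaged 5 CPM or more in a line. The leading genes included STAT2 (r = 0.998), APOBEC3G (0.994), CMPK2 (0.993) and LGALS9 (0.992). The libraries fall into 1 high group, PC3 siFOXA1, and 3 low ones, and these values describe mostly that step. Within the 6 VCaP libraries, where DDX58 varied little, r was 0.543 for STAT2 and between −0.285 and 0.236 for the other 3. STAT2, a subunit of the factor that binds interferon-stimulated response elements, averaged 58.0 CPM in PC3 NSI and 327.1 CPM in PC3 siFOXA1, and 41.6 and 42.0 CPM in VCaP.

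Some markers of other cell types moved with siFOXA1 in each line. The summed level of 8 leukocyte and endothelial genes was 26.5 to 29.7 CPM in PC3 NSI and 45.6 to 51.4 CPM in siFOXA1. CD68, a lysosomal protein gene that many tumour cells also express, held most of it, with means of 28.1 and 47.0 CPM, and 3 of 4 genes tested were called higher (PTPRC, tested only through siFOXA1, CD68 and CD14). In VCaP the same sum was 4.86 to 5.62 CPM with NSI and 4.72 to 5.58 CPM with siFOXA1, but its members moved in opposite directions. CD14 rose there (log2 fold change 1.97, from 0.686 to 2.74 CPM), VWF fell (−1.19, from 4.23 to 1.89 CPM) and CD68 was not called. MS4A1 summed to 1 count with NSI and 24 with siFOXA1 and was not tested. Fibroblast genes summed to 23.4 to 27.8 CPM in PC3 NSI and 44.5 to 49.9 CPM in siFOXA1. There, 3 of 3 tested were called higher. In VCaP they summed to 10.6 to 19.8 CPM with NSI and 1.44 to 7.49 CPM with siFOXA1. LUM fell in VCaP (log2 fold change −3.97, from 10.3 to 0.670 CPM), and the other 3 fibroblast genes tested were not called. PTPRC and CD3E were near 0 in all libraries, as given above. The part of these marker genes, and of any cells they mark, in the sensor results was not tested.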

How the data were processed

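The authors deposited estimated counts per gene, 1 table per library. Per the file headers, featureCounts summed GENCODE v28lift37 basic exons per gene (GRCh37), used fragments with both ends mapped, divided a fragment that had several places or genes among them, ignored strand in PC3 and counted the reverse strand in VCaP. STAR 2.7.3a and Subread 2.0.0 are named in the submitters' processing notes. From 54.8% to 75.2% of nonzero values per library were not whole, and all were rounded to whole numbers.

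Counts were fitted with edgeR 4.0.16 in R 4.3.3: filterByExpr, TMM factors on the genes left, and a two-sided quasi-likelihood test, with Benjamini-Hochberg adjustment over all genes tested. Each line was fitted on its 6 libraries, the interaction on all 12 and the NSI levels on 6. A standard error is the log2 fold change divided by the square root of F, intervals are 95% t intervals, and count ratios have exact binomial intervals. Fitted fold changes include a small prior count. CPM used TMM factors over 12 libraries. The PC3 and NSI contrasts share the PC3 NSI libraries, and the VCaP and NSI contrasts share the VCaP NSI libraries. On simulated counts, changes of log2 size 1 were recovered for 100% of genes in the PC3 contrast, 98% in VCaP, 72% in the interaction and 94% in the NSI contrast. These changes were placed only in genes averaging above 1 CPM, and every gene was given the same spread. The shares therefore do not cover genes at lower levels or with a wider spread. False calls made up from 3% of calls in the NSI contrast to 6.01% in the interaction.

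Replicate numbers 1 to 3 recur in every group of the sample titles. Deviations from the group mean correlated within numbers at 0.41, 0.56 and 0.20 in PC3, where the numbers behaved as pairs. In VCaP the values were 0.09, 0.05 and 0.33. The main fits ignored this pairing in both lines, so all values given above without mention of a block come from unpaired tests. Alternatives were DESeq2 1.42.0, its size factors, library size alone, no filter, the replicate block, a fit of all libraries, each library left out and, chosen after seeing the data, TMM factors from all genes and both PC3 replicates 2 left out. The genes, the lists and the tests were chosen with earlier results of these data known. Named besides the 10 genes and FOXA1 were up to 2 higher and 2 lower genes of each list with the smallest adjusted p per line, all first output genes and the 5 genes most correlated with DDX58. Marker genes were named for the cells they mark. Some genes that these rules name are not reported here.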

Additional observations from a re-analysis of the deposited data

Results flagged for a closer look

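The effect of FOXA1 siRNA differed between the lines for 7 of the 10 genes by the interaction test over 12 libraries (edgeR's quasi-likelihood test, adjusted over 30425 genes), given as the VCaP effect minus the PC3 effect in log2. The values were −3.75 for DDX58, −3.61 for IFIH1, −2.80 for EIF2AK2, −1.85 for TLR3 and −6.37 for ZBP1, whose counts were near 0 outside PC3 siFOXA1. ZBP1 passed the filter only through that group, so its direction was set by the filter. TMEM173 had the opposite sign, at 1.33. TICAM1, at −0.44 with an adjusted p of 0.0498, was at the threshold. Among all genes tested, 22.2% had a called difference.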

How the results depend on the processing

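The number of sensor genes called was 6 or 7 in PC3 over 14 alternatives, 4 in VCaP over 13, 6 or 7 for the interaction over 19 and 8 or 9 for the NSI levels over 12. The seventh PC3 call, TICAM1 at −0.27, appeared without replicate 2 of both groups. With the replicate block, 11297 genes were called in PC3 in place of 7149, and leaving out each library in turn gave 3945 to 7592, with 3945 without siFOXA1 replicate 1 and 4602 without NSI replicate 3. Leaving out both replicates 2 gave 10219. The block changed no other call among the sensor genes except IFIH1 between NSI groups (0.43, adjusted p = 0.0429), where the numbers pair nothing. Of 528 values of single genes, 509 kept their direction and their side of the threshold. The direction turned for genes that were not called: in VCaP, DHX58 ran from −0.215 to 0.026 over the libraries left out, above 0 without NSI replicate 1, NSI replicate 3 or siFOXA1 replicate 3, and IFIH1 ran from −0.031 (without NSI replicate 3) to 0.051. The MAVS interaction ran from −0.254 to 0.019, the latter without PC3 NSI replicate 2. The TICAM1 interaction missed the threshold without the filter (adjusted p = 0.0509), without PC3 siFOXA1 replicate 1 (0.0575), and without each VCaP library except NSI replicate 2 (0.0554 to 0.154). Fewer samples entered the fits without a library, and the cause was not tested. With library size alone, 40.5% of interaction calls were higher in place of 50.7%. Between NSI groups, the median of all genes moved by −0.11 without the filter and by −0.13 with TMM factors from all genes, and the sensor genes called kept their directions.

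Few counts limit DHX58 in PC3 and ZBP1 and MB21D1 in VCaP, with at most 9 counts in a library. DHX58 summed to 2 counts in PC3 NSI and to 275 in VCaP NSI, although the PC3 libraries were deeper. Leaving out a library left some groups with 2 samples. Line, kit, dose and medium cannot be told apart.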
